A study of Mus musculus with 6 samples.

Results

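The MHC class I heavy chains and β2-microglobulin were examined in cultured mouse lymphatic endothelial cells (LEC) on 6 Affymetrix arrays. They were chosen by name, as 10 of the genes on the array (H2-K1, H2-D1, H2-Q5, H2-Q7, H2-Q10, H2-T23, H2-T24, H2-T10, H2-M3 and B2m), and every probe set annotated to exactly 1 of them was taken as it stands. On an array where 18193 genes have a probe set of their own, this gave 20 of 45101 probe sets: 9 for H2-D1, 4 for H2-K1, 2 each for H2-Q5 and B2m, and 1 each for H2-Q10, H2-T24 and H2-M3. H2-Q7, H2-T23 and H2-T10 have no probe set of their own. They share theirs with other genes, and 8 such shared probe sets that include a member are given beside the members without assigning their signal to one gene. Tumour LEC were taken out of T241 fibrosarcomas in C57BL/6 hosts. T241 is a mouse fibrosarcoma line, here with VEGF-C, which drives lymphatic growth, and GFP, a fluorescent marker. The normal dermal LEC were taken from the tail skin of C57BL/6 females aged 8 weeks. For the tumour hosts, age and sex are not given in the sources used here. Both kinds of cell were cultured on gelatin in an endothelial medium and selected on beads that bind LYVE-1, a receptor of lymphatic endothelium, but the labels leave the last steps for the tumour cells unclear and title those arrays tumour cells while naming LEC as their source. Each group had 3 arrays, and nothing in the labels says that they came from separate cultures or animals, so that every p-value reflects array-to-array spread that may be technical.

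Class I molecules are pairs of a polymorphic heavy chain and the invariant light chain β2-microglobulin, which carry peptides from inside the cell to its surface for inspection by CD8 T cells. The classical heavy chains H2-K and H2-D do this on nearly all nucleated cells, and the nonclassical chains of the Q, T and M regions have narrower tasks, several of them in contact with natural killer cells and γδ T cells. Transcription of the classical genes and of B2m is driven from a short upstream region that binds NF-κB, interferon regulatory factors and an assembly of RFX, CREB/ATF and NF-Y proteins with the activator NLRC5, and interferons raise it.

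Promoter sequences of 7 of the 10 genes were taken from RefSeq (GRCm38.p6), and those of H2-Q5, H2-T24 and H2-T10 were not used here. The stretches of 140 bases below are shown because H2-K1, H2-D1 and H2-Q7 share an arrangement of elements that can be set beside the windows of H2-Q10, H2-M3 and B2m. Each is written 5′ to 3′ along its gene's strand. Capitals mark, on either strand, the NF-κB site of enhancer A (GGGATTCCC), the interferon element in its class I form (TTTCACTTC) or its general form (GAAANNGAA), the core of the CREB/ATF site (TGACG) and the CCAAT box that NF-Y binds (CCAAT).
H2-K1, chr17:34000328-34000467, minus strand: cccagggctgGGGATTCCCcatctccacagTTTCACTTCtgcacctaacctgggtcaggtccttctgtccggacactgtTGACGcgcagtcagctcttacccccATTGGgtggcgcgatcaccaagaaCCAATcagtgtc
H2-D1, chr17:35262914-35263053, plus strand: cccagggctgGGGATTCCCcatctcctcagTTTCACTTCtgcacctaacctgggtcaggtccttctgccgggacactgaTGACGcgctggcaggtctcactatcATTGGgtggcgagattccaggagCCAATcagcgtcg
H2-Q7, chr17:35439012-35439151, plus strand: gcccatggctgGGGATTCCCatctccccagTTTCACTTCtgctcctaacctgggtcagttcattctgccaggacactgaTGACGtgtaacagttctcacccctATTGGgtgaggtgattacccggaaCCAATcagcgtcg
H2-Q10, chr17:35469904-35470043, plus strand: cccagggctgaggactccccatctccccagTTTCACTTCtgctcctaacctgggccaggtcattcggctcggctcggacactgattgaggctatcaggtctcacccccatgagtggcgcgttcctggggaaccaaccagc
H2-M3, chr17:37270103-37270242, plus strand: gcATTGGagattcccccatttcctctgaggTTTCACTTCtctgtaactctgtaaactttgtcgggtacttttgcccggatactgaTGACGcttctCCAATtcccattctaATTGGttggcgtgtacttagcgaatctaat
B2m, chr2:122147518-122147657, plus strand: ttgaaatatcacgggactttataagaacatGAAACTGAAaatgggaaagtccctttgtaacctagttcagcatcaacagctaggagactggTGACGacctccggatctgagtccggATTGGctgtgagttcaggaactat

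Over the whole listed windows of 300 bases, H2-K1, H2-D1 and H2-Q7 hold the enhancer A site, the class I interferon element, the CREB/ATF core and the CCAAT box in the same order. The enhancer A letters occur in 0.37% of the 27025 promoters searched (1 window a gene, both strands) and the class I interferon letters in 0.522%. Both occur together in 4 promoters, those of H2-K1, H2-D1, H2-Q7 and H2-Q6, the neighbour of H2-Q7. These letters were chosen with the class I promoters in view, so the shares describe how rare the arrangement is and test nothing. H2-M3 and H2-Q10 hold the class I interferon letters without the enhancer A letters. The H2-Q10 window has no match to the CREB/ATF core or the CCAAT box, which 21% and 37.9% of promoters hold. B2m and H2-T23 hold the general interferon letters, found in 8.57% of promoters. A match describes the sequence and is not a bound site, and no match says only that these letters are not in this window.

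The values are log2 expression as deposited. An array's background limit is the highest of its 27 control probe sets for bacterial RNA that the samples lack, and a group is at background if no array of it exceeds its limit. This limit was 3.48 to 3.71 on the tumour arrays and 3.40 to 3.47 on the normal arrays. Tumour replicate 3 had the highest array median (3.15, against 2.99 to 3.02 on the other 5) and the highest background limit. Of 27022 probe sets past a filter on low values, 60 (0.222%) had an adjusted p under 0.05 in limma after Benjamini-Hochberg adjustment over all of them (called passing the test here), 13 higher (0.0481%) and 47 lower (0.174%) in tumour LEC. Lyve1, whose product was used for selection, lay between 14.11 and 14.91 in tumour LEC and between 13.65 and 14.32 in normal LEC, and of 14 pan-endothelial markers none was at background on any array.

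Class I genes read higher in tumour LEC at every member probe set that had signal. Of the 20 member probe sets, 13 were at least 2-fold higher in tumour LEC, against 1.8% of all probe sets, and 0 were at least 2-fold lower, against 3.34%. The median difference was 1.61 log2 units, against 0.05 over all probe sets. Of the 19 that passed the filter, 2 passed the test, 1 of H2-D1 and 1 of H2-Q5, both higher, against 0.222% of all probe sets tested, and 13 had an unadjusted p under 0.05, all higher, against 5.84%. The 3 tumour arrays lay above the 3 normal arrays for 19 of the 20, but so they did for 45.5% of all probe sets and for 74.4% of those at background on all arrays. Among the 10 member probe sets above background on every array, all 10 separated the groups, against 12.9% of such probe sets in the whole table. These 10 belong to 4 genes, and near-identical heavy chains can share probes, so they are not 10 independent readings.

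**Figure D1:**
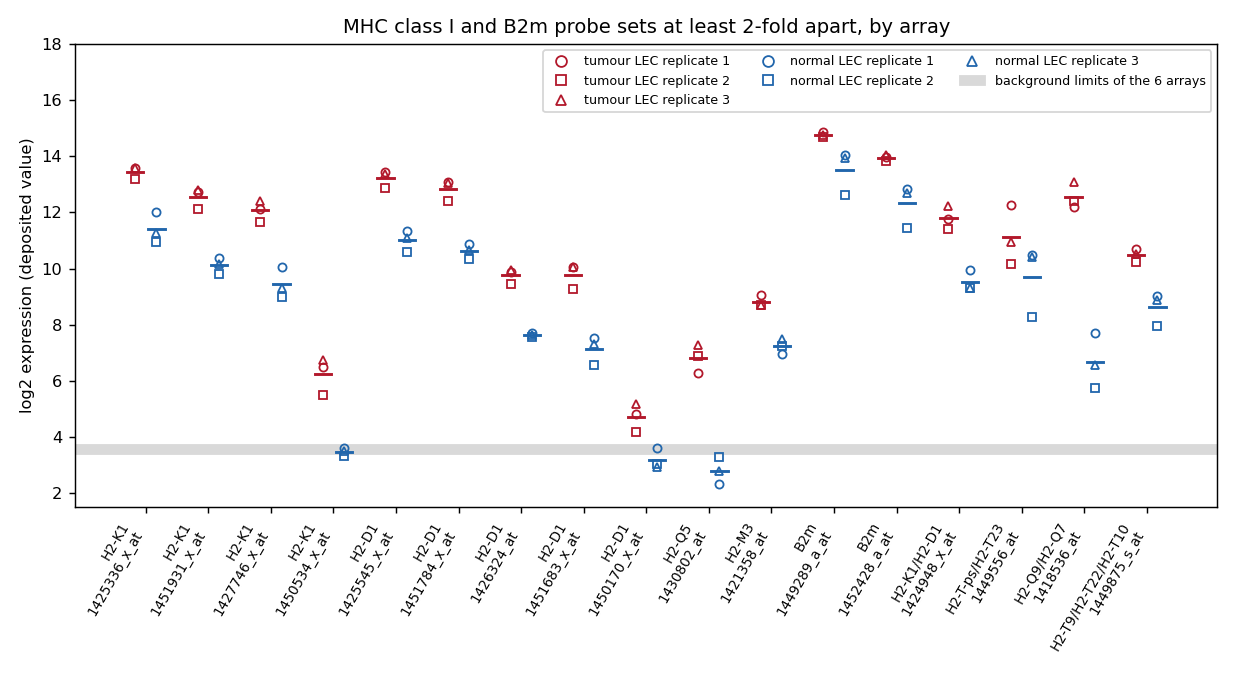
Deposited log2 expression (y axis) of the member and shared probe sets with a difference above 1 log2 unit and all 3 tumour arrays above background; each marker is 1 array (tumour LEC left in red, normal LEC right in blue), the short lines are group means and the grey band spans the background limits of the 6 arrays. Groups overlap only for the probe set shared by H2-T23 and H2-T-ps, and the widest separation is that of the probe set shared by H2-Q7 and H2-Q9.

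H2-D1, a classical heavy chain, had the member probe set with the smallest p. On 1426324_at, whose name carries no suffix for multiple matches, tumour replicates 1 to 3 read 9.88, 9.45 and 9.94, and normal replicates 1 to 3 read 7.70, 7.57 and 7.64. The normal arrays lay within 0.13 log2 units of each other, and the lowest tumour array exceeded the highest normal array by 1.75. H2-D1 thus rose by 2.12 log2 units (SE 0.16, 4.35-fold), with a tumour LEC mean of 9.76 ± 0.27 and a normal LEC mean of 7.64 ± 0.07 (SD, n = 3 each, limma adjusted p = 0.0297). The call was lost without tumour replicate 1 (adjusted p = 0.0826), tumour replicate 3 (0.167), normal replicate 2 (0.0918) or normal replicate 3 (0.112). It was also lost without the filter (0.0626) and with the replicate block (0.0619). The difference stayed between 1.87 and 2.27 over 14 alternative settings, with adjusted p from 0.0113 to 0.167.

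The brighter H2-D1 probe sets gave differences of like size with a wider spread. On 1425545_x_at the tumour arrays read 13.44, 12.86 and 13.37, and the normal arrays 11.34, 10.59 and 11.08. The difference was 2.22 log2 units (SE 0.26, limma adjusted p = 0.0586), just short of the threshold. On 1451784_x_at it was 2.24 (SE 0.24, limma adjusted p = 0.0533), and on 1451683_x_at, with a lower level, 2.65 (SE 0.34). On these 3 the lowest tumour array stood 1.52 to 1.73 log2 units above the highest normal array. On the dim 1450170_x_at, the tumour arrays read 4.80, 4.18 and 5.15, while 2 of the 3 normal arrays were at background, so that the difference is at least 2.32-fold. The remaining 4 H2-D1 probe sets were at background on all 6 arrays, with differences from 0.03 to 0.28 log2 units, and 1 of them, 1451934_at, fell below the filter. The 9 probe sets of 1 gene thus range from a 6.29-fold difference to none that can be read.

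H2-K1, the other classical heavy chain of this strain, separated the groups on all 4 of its probe sets and passed the test on none. The brightest, 1425336_x_at, read 13.58, 13.20 and 13.58 in tumour replicates 1 to 3, against 12.00, 10.94 and 11.26 in normal replicates 1 to 3. That is a difference of 2.05 log2 units (SE 0.30, 4.15-fold, limma adjusted p = 0.0863). 1451931_x_at came closest to the threshold, at 12.72, 12.11 and 12.81 in tumour LEC and 10.38, 9.80 and 10.17 in normal LEC. It differed by 2.43 log2 units (SE 0.25, 5.38-fold, limma adjusted p = 0.0504), and its adjusted p ran from 0.0207 to 0.214 over 13 alternative settings. 1427746_x_at differed by 2.61 (SE 0.34). The dimmest, 1450534_x_at, read 6.48, 5.51 and 6.73 in tumour LEC and stood at the edge of background in normal LEC, at 3.59, 3.32 and 3.49, which makes it at least 6.60-fold higher. All 4 are of the type whose probes can match several genes, and 1424948_x_at, annotated to H2-K1 and H2-D1 together, differed by 2.28 (SE 0.28), within the range of both.

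B2m, the light chain that pairs with class I heavy chains and that the classical ones need for a stable surface complex, was among the brightest signals and had, on 1449289_a_at, the smallest difference of the 10 member probe sets above background on every array. There the tumour arrays read 14.85, 14.68 and 14.74, and the normal arrays 14.03, 12.62 and 13.93. The tumour arrays lay within 0.17 log2 units of each other, whereas normal replicate 2 stood 1.31 below the next normal array. The difference was 1.23 log2 units (SE 0.40, 2.35-fold, limma adjusted p = 0.285) and did not pass. The other probe set, 1452428_a_at, had the same shape, at 13.98, 13.83 and 14.05 in tumour LEC and 12.84, 11.44 and 12.67 in normal LEC, a difference of 1.64 (SE 0.39, 3.11-fold, adjusted p = 0.189). Without normal replicate 2 the differences were 0.78 and 1.2.

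The widest differences belonged to the Q region, whose H2-Q6 to H2-Q9 genes encode Qa-2, a nonclassical molecule anchored in the membrane by a lipid. The probe set shared by H2-Q7 and H2-Q9, 1418536_at, read 12.18, 12.41 and 13.07 in tumour replicates 1 to 3, against 7.69, 5.74 and 6.57 in normal replicates 1 to 3. The gap between the lowest tumour and the highest normal array was 4.48 log2 units. It was higher by 5.89 log2 units (SE 0.54, 59.1-fold, limma adjusted p = 0.0427), the 6th largest rise of all 45037 probe sets that are not controls. Its difference lay between 5.42 and 6.40 over 14 alternative settings, with adjusted p from 0.0130 to 0.199. The call was lost without any 1 of the tumour arrays (adjusted p 0.0846, 0.111 and 0.199 without replicates 1, 2 and 3) and without normal replicate 2 (0.0783) or 3 (0.122). It was also lost without the filter (0.0933), with median centring (0.0506) and with the replicate block (0.0835).

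Other probe sets of that region that name no member, picked out after their values were seen, showed the same direction. 1431008_at, annotated to H2-Q6 and H2-Q8, read 11.02, 11.30 and 12.34 in tumour LEC and 6.33, 4.40 and 5.53 in normal LEC (limma adjusted p = 0.0445). 1451644_a_at, annotated to H2-Q4, H2-Q6 and H2-Q8, read 8.08, 8.33 and 9.72 in tumour LEC and 5.29, 4.17 and 5.99 in normal LEC, and did not pass (limma adjusted p = 0.110). Which of the Qa-2 genes gave these signals cannot be told from these probe sets.

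H2-Q5, which lies between H2-Q4 and H2-Q6 and is listed by RefSeq as a transcribed pseudogene, was the other member that passed. On 1430802_at the tumour arrays read 6.29, 6.89 and 7.26, and the normal arrays, all at background, 2.33, 3.27 and 2.80. H2-Q5 rose by at least 10.4-fold (limma adjusted p = 0.0379). The measured difference was 4.01 log2 units (SE 0.34), with a gap of 3.01 between the groups. The call held without normal replicate 1 (adjusted p = 0.0435) and was lost when any other single array was left out (adjusted p 0.0761 to 0.194). It was also lost without the filter (0.0801). On this probe set normal replicate 2 was the highest of the normal arrays, the reverse of its place on the H2-K1, H2-D1 and B2m probe sets that were above background on every array, although all 3 values lie at background, where order carries little meaning. The other H2-Q5 probe set, 1450582_at, was at background on all arrays, at 2.81, 2.82 and 3.06 in tumour LEC and 2.80, 2.80 and 2.70 in normal LEC.

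H2-Q10, the next gene after H2-Q7 and in mouse a secreted class I chain made mainly by the liver, gave no signal. Its probe set 1425137_a_at read 2.77, 2.77 and 2.91 in tumour LEC and 2.75, 2.75 and 2.73 in normal LEC, at background on all 6 arrays. The separation of the groups here is 0.01 log2 units wide and is of the kind that most background probe sets show.

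H2-M3, which presents peptides that begin with N-formylmethionine, as bacterial and mitochondrial proteins do, was higher with little spread. The tumour arrays read 9.04, 8.70 and 8.70, and the normal arrays 6.94, 7.26 and 7.47. No array came within 1.22 log2 units of the other group. The difference was 1.59 log2 units (SE 0.18, 3.01-fold, limma adjusted p = 0.0586), short of the threshold, and it lay between 1.45 and 1.72 over 15 alternative settings, with adjusted p from 0.0214 to 0.223. Normal replicate 2 was not the lowest normal array for H2-M3, as it was on the other 9 member probe sets above background on every array.

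Genes of the T region gave mixed readings. On 1 shared probe set the groups were well apart, the others overlapped or lay near background, and none passed the test. H2-T23 encodes Qa-1, a ligand of the CD94/NKG2 receptors of natural killer cells. Its brighter probe set, 1449556_at, is shared with H2-T-ps and read 12.25, 10.16 and 10.95 in tumour LEC, against 10.46, 8.26 and 10.42 in normal LEC. The groups overlapped, with tumour replicate 2 below normal replicates 1 and 3, and the difference of 1.41 log2 units (SE 0.81, limma adjusted p = 0.484) did not pass. It became 0.84 without tumour replicate 1, 0.68 without normal replicate 2 and 0.62 with array weights (adjusted p 0.185 to 0.685 over the alternatives). The other, 1419658_at, was close to background, with 1 tumour and 1 normal array at it.

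H2-T10, listed by RefSeq as a transcribed pseudogene in this strain, is named with H2-T9 and H2-T22 on 1449875_s_at. H2-T22 and its relatives are recognised by some γδ T cells. That probe set read 10.68, 10.24 and 10.51 in tumour LEC and 9.04, 7.96 and 8.90 in normal LEC, without overlap. The difference was 1.85 log2 units (SE 0.32, limma adjusted p = 0.107). The other probe set of these genes, 1439121_at, read 3.87, 4.26 and 4.02 in tumour LEC and 3.94, 3.95 and 3.94 in normal LEC. H2-T24 was at background on all arrays, at 3.03, 2.89 and 3.35 in tumour LEC and 2.91, 3.03 and 3.03 in normal LEC, and was the only member probe set on which the groups overlapped.

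**Figure D2:**
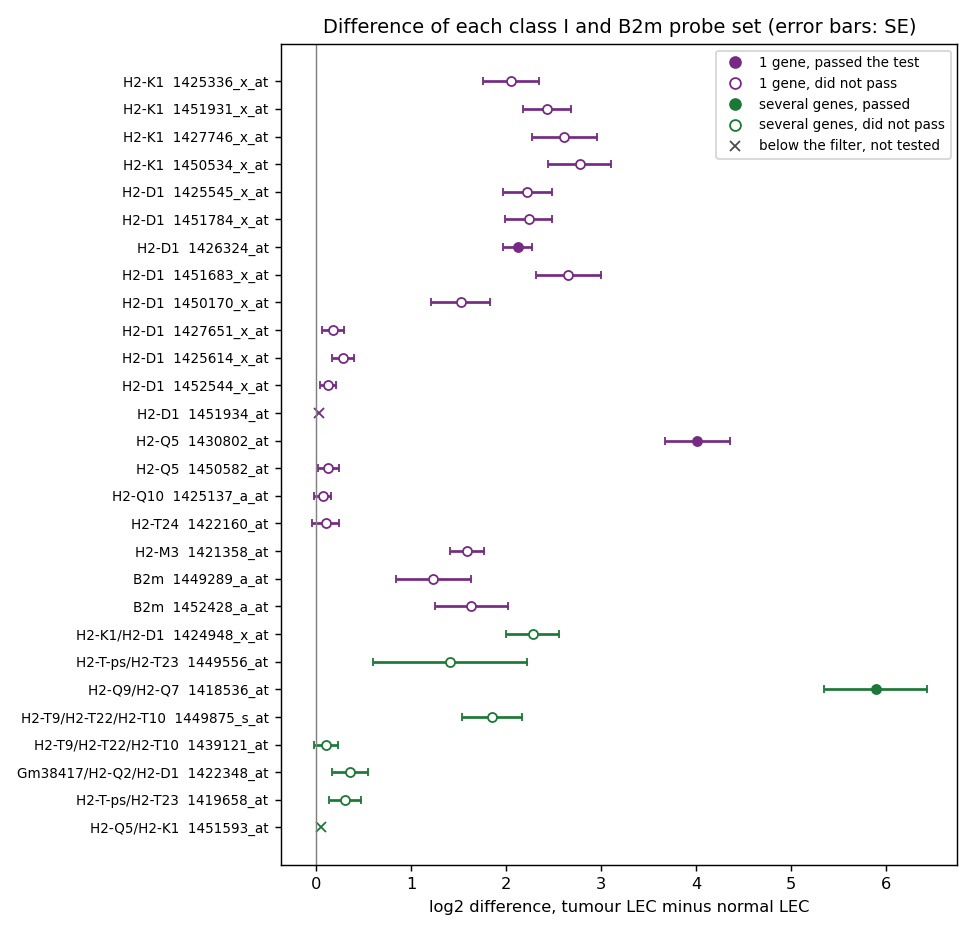
Log2 difference, tumour LEC minus normal LEC (x axis), of all 20 member probe sets (purple) and the 8 shared with another gene (green), each with its SE; filled circles passed an adjusted p of 0.05, open circles did not and crosses were below the filter. The classical chains, H2-M3 and B2m lie between 1.23 and 2.77 where they have signal, H2-Q5 reaches 4.01 and the H2-Q7 and H2-Q9 probe set 5.89.

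The arrays of 1 group were not alike. For the 10 member probe sets above background on every array, normal replicate 2 was the lowest normal array for 9 and normal replicate 1 the highest for 9, and tumour replicate 2 was the lowest tumour array for all 10. Their median deviation from the 6-array mean was 1.25, 0.75 and 1.25 log2 units in tumour replicates 1, 2 and 3, and -0.82, -1.52 and -1.07 in normal replicates 1, 2 and 3. Genes that interferon induces, 19 on the array, had median deviations of 1.58, 0.24 and 0.45 in tumour LEC and -0.76, -1.57 and 0.10 in normal LEC. Normal replicate 2 was thus the lowest array on both measures. Normal replicate 3 lay near the tumour arrays for the interferon list and well below them for class I. Leaving out normal replicate 2 gave a median difference of 1.52 over all 20 member probe sets, dim ones included, against 1.61 with all arrays. For the interferon list it gave 0.95, against 1.29 with all arrays. The part of interferon signalling in the class I values was not tested.

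**Figure D3:**
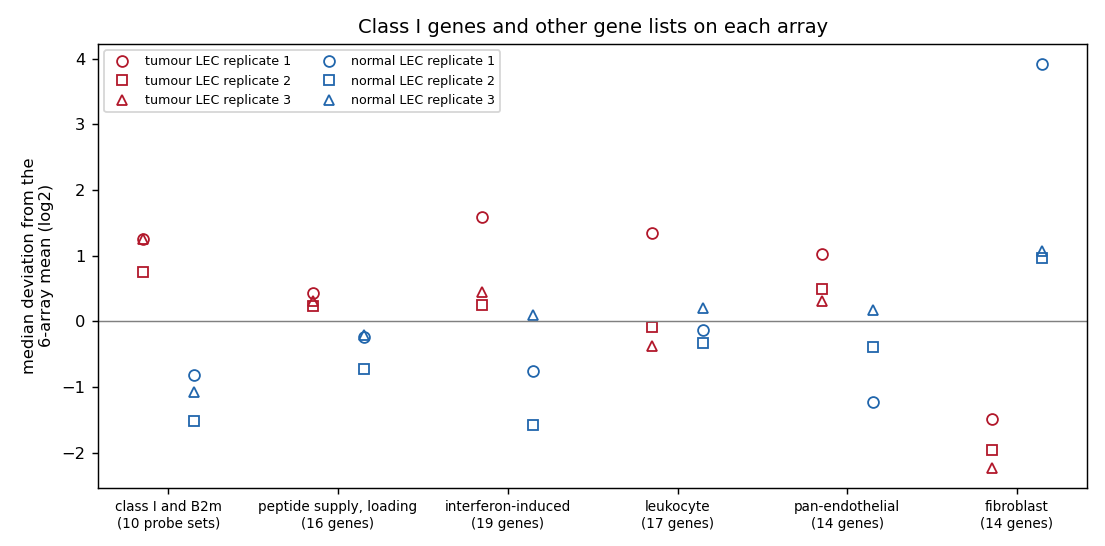
Median deviation from the 6-array mean in log2 units (y axis) of the 10 member probe sets above background on every array and of 5 other gene lists at their brightest probe set; each marker is 1 array, tumour LEC left in red and normal LEC right in blue. The medians of all these except the leukocyte list separate the groups, the fibroblast list as lower in tumour LEC. The lowest tumour and highest normal medians are 0.75 and -0.82 for class I and 0.24 and 0.10 for the interferon-induced list. Read like that list, at the brightest probe set of each of 7 class I genes (not drawn), they are 0.68 and -0.43.

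Genes that supply and load the peptides were next examined at the brightest probe set of each gene. Of 16 on the array none passed the test (limma; 0.0386% of genes passed as higher and 0.178% as lower), and 8 had an unadjusted p under 0.05, all higher in tumour LEC, where 7% of all genes were higher at that p. For 8 of the 16 the groups did not overlap, all higher, against 13.8% of genes above background on some array. Those 8 were the immunoproteasome subunits Psmb8, Psmb9 and Psmb10, the proteasome activator subunit Psme1, the peptide transporter chains Tap1 and Tap2, Tapbp or tapasin, which holds class I at the transporter, and Erap1, which trims peptides in the endoplasmic reticulum. Psmb9 read 9.42, 8.96 and 8.94 in tumour LEC and 6.67, 4.91 and 6.05 in normal LEC, and Tapbp 11.41, 10.54 and 10.99 in tumour LEC and 10.07, 8.63 and 9.97 in normal LEC. Erap1 read 7.95, 8.27 and 8.45 in tumour LEC, against 6.70, 6.37 and 7.29 in normal LEC. The general chaperones of that compartment showed smaller differences, 0.21 for Pdia3, -0.07 for Calr and 0.35 for Canx, and their groups overlapped.

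Among regulators of class I transcription 3 differed by more than 2 log2 units, Nlrc5, Irf7 and Irf8. Nlrc5, the class I transactivator, read 7.71, 7.73 and 8.52 in tumour LEC and 5.32, 2.89 and 5.15 in normal LEC, where replicate 2 was at background. It was at least 10.13-fold higher without passing the test (limma adjusted p = 0.137), and normal replicate 2 was again the lowest array. Irf7, an interferon regulatory factor, read 10.14, 7.83 and 8.51 in tumour LEC and 6.89, 5.28 and 7.74 in normal LEC, a difference of 2.19 (SE 0.85, limma adjusted p = 0.350). Irf8, another, read 7.83, 7.60 and 7.60 in tumour LEC and 3.47, 6.74 and 6.63 in normal LEC, where replicate 1 was the low one, a difference of 2.07 (SE 0.92, limma adjusted p = 0.398). Of the 25 regulators on the array 24 passed the filter. None of these passed the test (limma), and 5 had an unadjusted p under 0.05, all higher (7% of all genes tested). For 8 of the 24 above background the groups did not overlap, all higher (13.8% of such genes). Among these were also the interferon receptor chains Ifngr1, at a difference of 0.67 (SE 0.19), and Ifnar2, at 0.58 (SE 0.17), and the kinase Jak2, at 0.65 (SE 0.23). Irf2 and Tyk2 counted among them with gaps of only 0.022 and 0.005 log2 units between the groups. Irf1, which binds the interferon element, overlapped between the groups, at 8.44, 7.99 and 7.91 in tumour LEC and 7.99, 7.42 and 8.12 in normal LEC. The DNA-binding partners of NLRC5 also overlapped, at 0.41 for Rfx5, -0.19 for Rfxap, -0.27 for Rfxank and 0.02 for Creb1. So did the NF-Y chains, at 0.60 for Nfya, -0.13 for Nfyb and -0.56 for Nfyc.

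Interferon-induced genes and other class I-like genes gave a mixed picture beside this. Of 19 interferon-induced genes 18 passed the filter. None of these passed the test (limma), and 10 had an unadjusted p under 0.05, all higher, against 7% of genes. Of the 17 above background 10 separated the groups, all higher, against 13.8% of such genes. Oas1a, an activator of RNase L, differed by 4.44 log2 units (SE 0.78), and Igtp, a GTPase, by 2.09 (SE 0.54), while Ifit1, Ifit2 and Ifit3 overlapped. Of 13 other class I or class I-like genes with a probe set of their own 10 passed the filter. None of these passed the test (limma), and 1 had an unadjusted p under 0.05 and was higher (7% of genes). Of the 8 above background 2 separated the groups (13.8% of such genes). These 2 were H2-Bl, at 0.62 (SE 0.16), and H2-M9, at 0.33 (SE 0.14), both dim. The lipid-presenting Cd1d1 read 9.83, 8.78 and 8.65 in tumour LEC and 9.69, 8.74 and 9.64 in normal LEC. Fcgrt, the heavy chain of the neonatal Fc receptor and a partner of β2-microglobulin, differed by 0.22 (SE 0.66), and Mr1, which presents microbial vitamin metabolites, by 0.82 (SE 0.42). MHC class II genes stayed dim, and 4 of the 8 on the array passed the filter. None of these passed the test (limma), and 3 had an unadjusted p under 0.05, all higher, against 7% of genes. All 4 above background on some array separated the groups, all higher, against 13.8% of such genes, with gaps of 0.04 to 0.29 log2 units. H2-Eb1 was above background on every array, at 3.81, 5.10 and 5.03 in tumour LEC and 3.55, 3.74 and 3.46 in normal LEC. Cd74, the invariant chain, read 2.82, 3.59 and 3.99 in tumour LEC and 2.52, 2.53 and 2.45, at background, in normal LEC.

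Markers of other cell types are set beside the class I values. In cultures like these, more class I RNA per cell and a different mix of cells cannot be told apart. Of 17 leukocyte genes, whose class I levels are usually high, 14 passed the filter. None of these passed the test (limma, 2 at an unadjusted p under 0.05, Lcp1 and Aif1, both higher, against 7% of genes). Of the 13 above background 2 separated the groups, both higher, against 13.8% of such genes. The summed linear level of the 17 was 8486, 2604 and 4681 in tumour replicates 1, 2 and 3, and 2357, 2063 and 5106 in normal replicates 1, 2 and 3. Cd14 made up 4083 of the level in tumour replicate 3, and without it the sum was 6282, 1336 and 597 in tumour LEC and 1030, 907 and 2538 in normal LEC. Ptprc, which encodes CD45, was above background in tumour replicate 1 alone (5.92), and the T cell gene Cd3e was at background on all arrays. The macrophage gene Cd68 read 10.88, 7.90 and 4.82 in tumour LEC and 8.56, 8.45 and 9.57 in normal LEC. Without tumour replicate 1 the median difference over all 20 member probe sets was 1.55, against 1.61 with it.

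Of 14 fibroblast genes 13 were lower in tumour LEC without overlap, where 13.4% of genes above background were, and 11 were lower at an unadjusted p under 0.05, where 9.11% of genes were. Col1a2, a collagen I chain, passed the test (limma), at 3.61, 3.16 and 2.76 in tumour LEC and 14.29, 11.69 and 11.70 in normal LEC. The summed linear level of the 14 was 35920 to 42940 in tumour LEC and 65090 to 116700 in normal LEC, but Vim, a filament gene that endothelial cells also express, made up 33822 to 36179 of it in tumour LEC. Without Vim the sum was 6760, 3321 and 2093 in tumour replicates 1, 2 and 3, against 77675, 27261 and 32380 in normal replicates 1, 2 and 3. Normal replicate 1 was the highest, and 3 to 7 of the 14 genes were at background per tumour array. Without normal replicate 1 the median difference over all 20 member probe sets was 1.81, against 1.61 with it. Of 9 epidermal genes 6 were at background on all arrays and 7 passed the filter. None of these 7 passed the test (limma, 2 lower at an unadjusted p under 0.05, Krt10 and Dsc3, against 9.11% of genes). Of 14 pan-endothelial genes none passed (limma, 4 at an unadjusted p under 0.05, all higher, against 7% of genes), 6 separated the groups, all higher, against 13.8%, and 8 overlapped. Their median difference was 1.02, or 0.63 without normal replicate 1. The 4 with the smallest p were Ets1 (1.04), Eng (1.70), Esam (2.08) and Cd34 (1.25). Cdh5 (1.01) and Robo4 (1.48) also separated the groups. Among those that overlapped, Kdr (-0.10), Ramp2 (-0.11) and Tie1 (0.02) lay near 0. The rest of them were higher, Emcn by 1.51, Pecam1 by 1.44, Erg by 0.90, Tek by 0.81 and Egfl7 by 0.57. Of 11 lymphatic genes none passed (limma, 2 at an unadjusted p under 0.05, Tbx1 and Thy1, both higher, against 7% of genes). Of the 10 above background on some array 3 separated the groups, all higher, against 13.8% of such genes. The median difference of the lymphatic genes was 0.19. It became 0.53 without tumour replicate 2, 0.36 without tumour replicate 3 and 0.42 without normal replicate 3. The part of these cell mixtures in the class I values was not tested.

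The genes whose values followed the brightest H2-D1 and B2m probe sets most closely were sought among 10520 genes by Pearson correlation over the 6 arrays. These points share the split into groups, so a high r says mainly that a gene differs between the groups in the same way. For H2-D1 they were Fam174b (r = 0.995), Pde8a (0.991), Papolg (0.991), Rnf114 (0.991) and Rerg (0.990), of which Pde8a passed the test, at 1.08 log2 units (SE 0.10, limma adjusted p = 0.0405). For B2m they were BC052688 (0.991), Zfp982 (0.990), Hoxb4 (0.986) and, of the peptide supply list, Psmb8 (0.985) and Psme1 (0.985). Psmb8 read 10.44, 9.93 and 9.81 in tumour LEC and 7.45, 4.85 and 7.61 in normal LEC, with the same low normal replicate 2 as B2m.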

How the data were processed

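RNA of 6 arrays, 3 of tumour LEC and 3 of normal LEC, was analysed. Each deposited value is a log2 expression level of 1 probe set. RMA and GCRMA are named in the submitters' processing notes, without versions or a word on which gave these values. Both correct background, normalize between arrays and summarise probes, and GCRMA draws dim signals towards a floor. Scanner files were not used here. Gene names come from the platform's annotation in GEO, which can be out of date, with symbols checked against RefSeq (GRCm38.p6). Of 45101 probe sets, 34945 have 1 gene and 932 several.

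From these values, R 4.3.3 and limma 3.58.1 (lmFit, eBayes) compared the groups for the 27022 probe sets, controls left out, whose mean was above the 40th percentile (2.71), with Benjamini-Hochberg adjustment over all of them, two-sided, at 0.05. The smallest p of an exact permutation test with 3 arrays a group is 0.1, so no such test is given. Folds against background use the array's highest bacterial control and are lower bounds. A gene of a list is read at its brightest probe set, and the number of arrays limits the precision.

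All member probe sets are described, those of H2-D1 at background on all arrays as a group. Beyond them the rule names the 4 smallest p of each list, 16 fixed genes and the 5 genes most like H2-D1 and B2m, and some others, such as Psmb10, Psme1, Pdia3, Calr, Canx, Rfx5, the Ifit genes, Cd1d1, Fcgrt and Cd3e, were picked with their values in sight. The promoter motifs were chosen with the class I promoters in view and are exact letters on both strands. The members and lists were chosen with earlier results of these data known. A simulation of 27022 probe sets used independent normal noise with the variances that limma estimated here. In it 42%, 82%, 94% and 98% of those changed by 1, 2, 4 and 8 log2 units were recovered. Of its 166 calls, 8 were unchanged ones. It checks that the fit runs as intended, and its shares are not the power of the real comparison. There all 4 H2-K1 probe sets differed by more than 2 log2 units and none passed. Alternatives were other filters, quantile normalization, median centring, an intensity trend, array weights, probe sets without _x_at, _s_at or _a_at suffixes, the brightest probe set of each gene, a replicate block and leaving out each array. The list medians without single arrays and the summed levels without Vim or Cd14 were added after seeing the data.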

Additional observations from a re-analysis of the deposited data

How the results depend on the processing

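The direction of the member probe sets hardly depended on the processing, whereas the number that passed did. The median member difference lay between 1.52 and 1.81 without single arrays (1.81 without normal replicate 1) and was 0.86 without _x_at, _s_at and _a_at probe sets, a step that leaves few members. The 2 calls became 0 with no filter, 10 with a 60th percentile filter, 4 with an intensity trend, 10 with array weights, 1 at the brightest probe set of each gene and 5 with the replicate block, and 0 to 4 without single arrays: 0 without tumour replicate 1 or 3 or normal replicate 2 or 3, 4 without normal replicate 1. All were higher in tumour LEC. Array weights gave tumour replicate 2 a weight of 4.76, against 0.46 and 0.24 for tumour replicates 1 and 3. The tumour mean in that setting thus rests largely on 1 array. The 60 probe sets called in the whole table became 14 with no filter, 179 with the 60th percentile filter, 958 with array weights, 36 without the suffixed probe sets, 28 at the brightest probe sets, which are fewer tests, and 7 to 139 without single arrays (139 without normal replicate 1, 7 without tumour replicate 3). The cause of the other shifts was not tested. H2-T24, at background, turned to -0.0722 with array weights and ran from -0.0295 (without tumour replicate 3) to 0.203 without single arrays, and 1439121_at ran from -0.0005 (without tumour replicate 2) to 0.195. Of 252 values of 19 member probe sets, 213 kept their direction and side of the threshold, 25 gained a call, 12 lost one and 2 reversed. Same-numbered replicates correlated at 0.19, 0.31 and 0.02 in their deviations, and differently numbered ones at -0.34 to 0.11. For tumour replicates 1 and 2 the same-numbered normal array had the highest correlation, for tumour replicate 3 it did not. These few values cannot settle whether the numbers pair the samples, and the main fit used no pairing. Under the replicate block the calls of H2-D1 on 1426324_at (adjusted p = 0.0619) and of the H2-Q7 and H2-Q9 probe set (0.0835) were lost and that of H2-Q5 held. GCRMA-like values near the floor limit what H2-Q10, H2-T24 and the dim H2-D1 probe sets can show.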
